A study of Mus musculus with 6 samples.

Results

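Apolipoproteins are the protein components of lipoprotein particles, and the 10 genes described here (Apoa1, Apoa2, Apoa4, Apoa5, Apob, Apoc1, Apoc2, Apoc3, Apoe and Apom) encode those that a mouse liver releases into plasma. They were chosen by name, from the values of all probe sets that the array's annotation assigns to exactly 1 gene. All 10 genes were measured, by 15 of the 22626 probe sets tested (10 of 12393 genes). Each probe set, a group of short probes for a transcript, gives 1 value per array as log2 expression, so that a difference of 1 is a 2-fold change. The tested livers came from 3 transgenic mice that carried a conditional Tcfeb (Tfeb) overexpression allele together with Cre recombinase driven by the albumin promoter (Alb-Cre), which is active in hepatocytes. The control livers came from 3 wild-type mice, and the labels do not say whether these carried Cre or the unrecombined allele. All 6 mice were at postnatal day 9, and each of the 6 arrays is labelled as a separate biological replicate. TFEB is a transcription factor that activates lysosomal and autophagy genes, and the comparison asks how its overexpression in liver changed gene expression.

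Hepatocytes assemble very-low-density lipoprotein around 1 molecule of apolipoprotein B and release it with smaller, exchangeable apolipoproteins. In the capillaries lipoprotein lipase removes the triglyceride, a step that apolipoprotein C-II allows and apolipoprotein C-III slows. High-density lipoprotein forms separately on apolipoprotein A-I and returns cholesterol to the liver.

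On the scale as deposited, Apoa4 and Apoc2 rose in transgenic liver and Apoc3, Apom and Apoa1 fell, each on every probe set measured for the gene; the sign of Apoa1 turned when arrays were scaled to bacterial control spikes. Apoa4, which encodes a protein of chylomicrons and high-density lipoprotein, rose 3.54-fold and 3.13-fold on its 2 probe sets. Apoc3 fell to 36.7% of the wild-type level. Apoa2, Apoa5, Apob, Apoc1 and Apoe were not called. Of the 15 probe sets, 3 were called higher and 7 lower with limma at a Benjamini-Hochberg adjusted p of 0.05, beside 18.1% and 17.3% of all probe sets, and 35.4% of all in either direction. Counting each gene once by its brightest probe set, 2 of 10 were higher and 3 lower, beside 19.1% and 19.5% of all genes. The share of genes called, 5 of 10, was thus not far from the 38.6% of all genes called in either direction. The transgenic arrays lay wholly above the wild-type arrays on 3 probe sets and wholly below them on 11, beside 24.6% and 25.9% of all probe sets (50.5% in either direction). By the brightest probe set of a gene this held for 2 and 7 of 10 genes, beside 25.6% and 28.1% of all genes (53.7% in either direction). The median difference was -0.19 over the 15 probe sets and -0.04 over all probe sets.

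**Figure D1:**
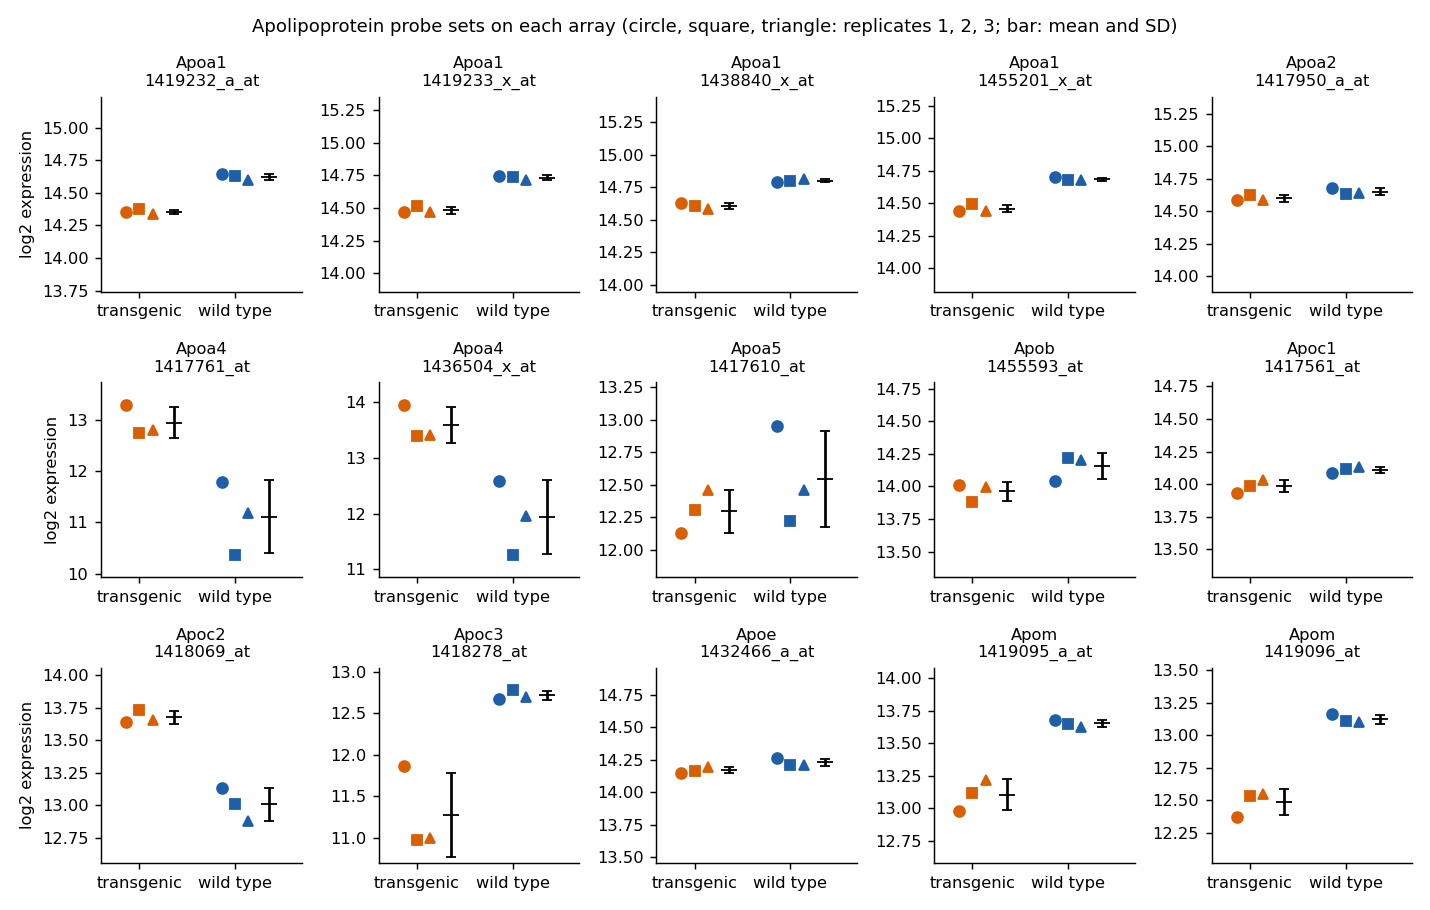
Log2 expression of the 15 apolipoprotein probe sets on each array, transgenic at the left and wild type at the right of each panel, with the mean and SD of 3 arrays beside each group. The panels have different ranges on the vertical axis. The groups are widest apart in Apoa4, Apoc2, Apoc3 and Apom, and only Apoa5 overlaps between transgenic and wild-type arrays.

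Several facts of the whole series bear on these values. The median over the probe sets tested was 6.78 to 6.79 on the transgenic arrays and 6.74 to 6.76 on the wild-type arrays. All 14 probe sets for the bacterial hybridisation controls bioB, bioC and bioD, spiked into every sample, were lower on every transgenic array, with a median difference of -0.37. Scaling the arrays to those controls moved the median of all probe sets from -0.04 to 0.33, so every direction given here holds on the deposited scale, and members whose sign turned are named where they appear. The scaling subtracts 1 value per array, so every difference moved up by the same amount. Only falls smaller than that amount could turn sign, and rises could not. The only Tfeb probe set read 6.52, 6.61 and 6.36 in transgenic liver, against 6.91, 6.63 and 6.58 in wild-type liver (difference -0.21, SE 0.11, adjusted p = 0.178 with limma), and with bacterial scaling the difference was 0.16. The labels do not describe the construct, so this probe set may lie outside the part that the transgene carries and does not check the labels. Xist, the transcript of the inactive X chromosome, read 5.58, 13.14 and 13.13 in transgenic liver on its brightest probe set, against 13.09, 13.03 and 13.19 in wild-type liver, and the Y-linked Eif2s3y read 9.32 in transgenic replicate 1 and 3.06 to 3.43 elsewhere. Transgenic replicate 1 was therefore the only array with a male pattern. Values without it are given below for Apoa4, Apoc2, Apoc3, Apom and Mttp, and calls without it for Apoa1. Apoa2, Apoa5, Apob, Apoc1 and Apoe were not called without it either. Of 9 measured hepatocyte markers 6 were lower and 0 higher, beside 38.6% of all genes called in either direction. Their summed level (log2 of the sum of the unlogged values) was 16.88 to 16.93 in transgenic and 17.18 to 17.19 in wild-type liver. Alb, a defining marker, averaged 14.87 in both groups, a reading at the array maximum. In whole liver, fewer cells of a type and less RNA per cell cannot be told apart.

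The apolipoproteins that act on lipoprotein lipase changed in different directions. Apoc2 encodes the lipase's obligatory cofactor. It read 13.64, 13.73 and 13.65 in transgenic liver, against 13.13, 13.01 and 12.88 in wild-type liver. Every transgenic array lay above every wild-type array, by at least 0.51. The difference was 0.67 (SE 0.08, adjusted p = 0.000676 with limma), or 1.59-fold. Without transgenic replicate 1 it was 0.69 (adjusted p = 0.00305 with limma).

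Apoc3 encodes an inhibitor of the lipase and of remnant uptake by the liver. It read 11.86, 10.97 and 10.99 in transgenic liver, against 12.68, 12.78 and 12.70 in wild-type liver. The groups were 0.82 apart at their nearest, and transgenic replicate 1 stood above the other transgenic arrays. Apoc3 fell by 1.44 (SE 0.22, adjusted p = 0.00177 with limma). Without transgenic replicate 1 the difference was -1.74 (SE 0.08, adjusted p = 3.09e-05 with limma).

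The transgenic arrays were unusually spread for Apoc3. The SD was 0.51 in transgenic liver, and only 3 of 533 other probe sets whose mean lay within 0.5 of that of Apoc3 had a larger transgenic SD. In wild-type liver the SD was 0.05, and 361 of those 533 probe sets had a larger one. The part of the male-pattern array in this spread was not tested beyond leaving it out.

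Apoa5 encodes a scarce plasma protein that promotes triglyceride clearance by the lipase. It read 12.13, 12.31 and 12.46 in transgenic liver, against 12.95, 12.22 and 12.46 in wild-type liver. The groups overlapped, and wild-type replicate 1 was the highest array. The difference of -0.25 (SE 0.18) was not called (adjusted p = 0.311 with limma), became -0.04 without wild-type replicate 1, and was 0.12 with bacterial scaling. The wild-type SD of 0.37 was exceeded by 4 of 405 other probe sets of like brightness.

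Among the apolipoproteins of high-density lipoprotein, Apoa4 rose while Apom and, on the deposited scale but not with bacterial scaling, Apoa1 fell. Apolipoprotein A-IV is made by the intestine in humans and by intestine and liver in mice. The dimmer probe set for Apoa4 read 13.29, 12.74 and 12.79 in transgenic liver, against 11.80, 10.37 and 11.18 in wild-type liver. The brighter one, whose _x_at suffix marks possible binding of other transcripts, read 13.96, 13.39 and 13.40 in transgenic liver, against 12.58, 11.26 and 11.97 in wild-type liver. On both probe sets every transgenic array lay above every wild-type array, and both probe sets gave the same highest and lowest array within each group.

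The differences for Apoa4 were 1.82 (SE 0.32, adjusted p = 0.00383 with limma) and 1.65 (SE 0.31, adjusted p = 0.00481 with limma). Leaving out 1 array at a time gave 1.45 to 2.17 for the dimmer probe set and 1.31 to 1.97 for the brighter one, all called. Without transgenic replicate 1 they were 1.65 and 1.46. The replicate spread was wide in wild-type liver, where Apoa4 spanned 1.42 and 1.32 on the log2 scale. None of the 533 and 334 other probe sets with a mean within 0.5 had a larger wild-type SD than the 0.71 and 0.66 of Apoa4, and their median SD was 0.07 and 0.06. Of 5 measured enterocyte markers 0 were called with limma (1 at an unadjusted p under 0.05), beside 38.6% of all genes called. Their summed level was 12.06 to 12.33 in transgenic and 11.82 to 12.37 in wild-type liver. Fabp2, the brightest of them, averaged 12.14 in transgenic and 11.95 in wild-type liver (adjusted p = 0.261 with limma), and it makes up most of that sum. Wild-type replicate 1 stood above the other wild-type arrays on all 5 markers. Lct, the intestinal lactase, read 3.60, 3.37 and 3.53 in transgenic liver, against 8.43, 3.74 and 3.93 in wild-type liver. Vil1, the villin of the brush border, read 6.65, 6.18 and 6.06 in transgenic liver, against 6.47, 4.27 and 4.03 in wild-type liver, a difference of 1.37 (SE 0.57, adjusted p = 0.0959 with limma). Cdx2, an intestinal transcription factor, read 5.64, 5.64 and 5.46 in transgenic liver, against 6.95, 5.99 and 5.71 in wild-type liver. Wild-type replicate 1 was also the highest wild-type array for Apoa4, and without it the differences of Apoa4 were 2.17 and 1.97 (adjusted p = 0.000923 and 0.00111 with limma). The part of these markers in the Apoa4 readings was not tested beyond leaving that array out.

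Apom encodes the lipocalin that carries sphingosine 1-phosphate on high-density lipoprotein. Its brighter probe set read 12.98, 13.11 and 13.22 in transgenic liver, against 13.68, 13.65 and 13.63 in wild-type liver, and the dimmer one read 12.37, 12.53 and 12.55 in transgenic liver, against 13.16, 13.11 and 13.10 in wild-type liver. The groups were 0.41 and 0.55 apart at their nearest. Apom fell by 0.55 (SE 0.08, adjusted p = 0.00154 with limma) and by 0.64 (SE 0.08, adjusted p = 0.000524 with limma). Transgenic replicate 1 was the lowest array on both probe sets. Without it the differences were -0.48 and -0.58 (adjusted p = 0.00558 and 0.00222 with limma). With bacterial scaling the differences were -0.18, no longer called (adjusted p = 0.126 with limma), and -0.27 (adjusted p = 0.0311 with limma).

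Apoa1 encodes the main protein of high-density lipoprotein and the activator of the cholesterol-esterifying enzyme LCAT. All 4 of its probe sets lay within 0.54 of the array maximum on every array, and they averaged 14.35 to 14.61 in transgenic and 14.62 to 14.80 in wild-type liver. No transgenic array overlapped a wild-type array on any of the 4. They fell by 0.27, 0.25, 0.23 and 0.19 (SE 0.06 each, adjusted p = 0.0134, 0.018, 0.0267 and 0.0451 with limma), and with bacterial scaling the same differences were 0.10, 0.12, 0.14 and 0.18, none called. The dimmest of the 4 had the largest difference and the brightest the smallest. The calls of the 3 _x_at probe sets were the less stable: the 2 with the smallest differences were not called with any 1 array left out (adjusted p = 0.0509 to 0.116 with limma), and the third was not called without transgenic replicate 1 (0.0538), transgenic replicate 3 (0.055) or wild-type replicate 2 (0.0536). In contrast, the call of the dimmest, with an _a_at suffix, was lost with bacterial scaling alone.

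Apoa2 encodes the second protein of high-density lipoprotein. It read 14.59, 14.63 and 14.58 in transgenic liver, against 14.68, 14.63 and 14.64 in wild-type liver, all within 0.29 of the array maximum. The groups were separated by only 0.003, and the difference of -0.05 (SE 0.06) was not called (adjusted p = 0.56 with limma). It was 0.32 with bacterial scaling (adjusted p = 0.0161 with limma).

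The structural and receptor-binding apolipoproteins differed little, at readings near the top of the scale. Apob encodes the structural protein of very-low-density and low-density lipoprotein. It read 14.01, 13.88 and 14.00 in transgenic liver, against 14.04, 14.22 and 14.21 in wild-type liver. The transgenic arrays were the lower ones, by as little as 0.03, and the difference of -0.19 (SE 0.08) was not called (adjusted p = 0.0991 with limma). It was called lower without wild-type replicate 1 (-0.25, adjusted p = 0.0453 with limma) and was 0.18 with bacterial scaling. Apob was also called lower with array weights, with cyclic loess, and with a robust eBayes that fits a variance trend (adjusted p = 0.0432, 0.0465 and 0.0248 with limma).

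Apoe encodes the ligand through which remnants bind the LDL receptor and LRP1, and macrophages make it too. It read 14.15, 14.16 and 14.19 in transgenic liver, against 14.26, 14.21 and 14.21 in wild-type liver. The groups lay 0.02 apart, with a difference of -0.06 (SE 0.06, adjusted p = 0.497 with limma) that became 0.31 with bacterial scaling (adjusted p = 0.0168 with limma). Of 11 measured Kupffer cell and macrophage markers 4 were lower and 0 higher, beside 38.6% of all genes called in either direction. Their summed level was 13.93 to 14.25 in transgenic and 14.18 to 14.57 in wild-type liver, and their part in the Apoe value was not tested.

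Apoc1 encodes a small protein that hinders remnant uptake. It read 13.93, 13.99 and 14.03 in transgenic liver, against 14.09, 14.11 and 14.13 in wild-type liver. The groups did not overlap, but the difference of -0.13 (SE 0.07) was not called (adjusted p = 0.173 with limma). With bacterial scaling it was 0.25 (adjusted p = 0.041 with limma). Apoc1 was called lower with the robust eBayes that fits a variance trend (adjusted p = 0.0322 with limma).

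**Figure D2:**
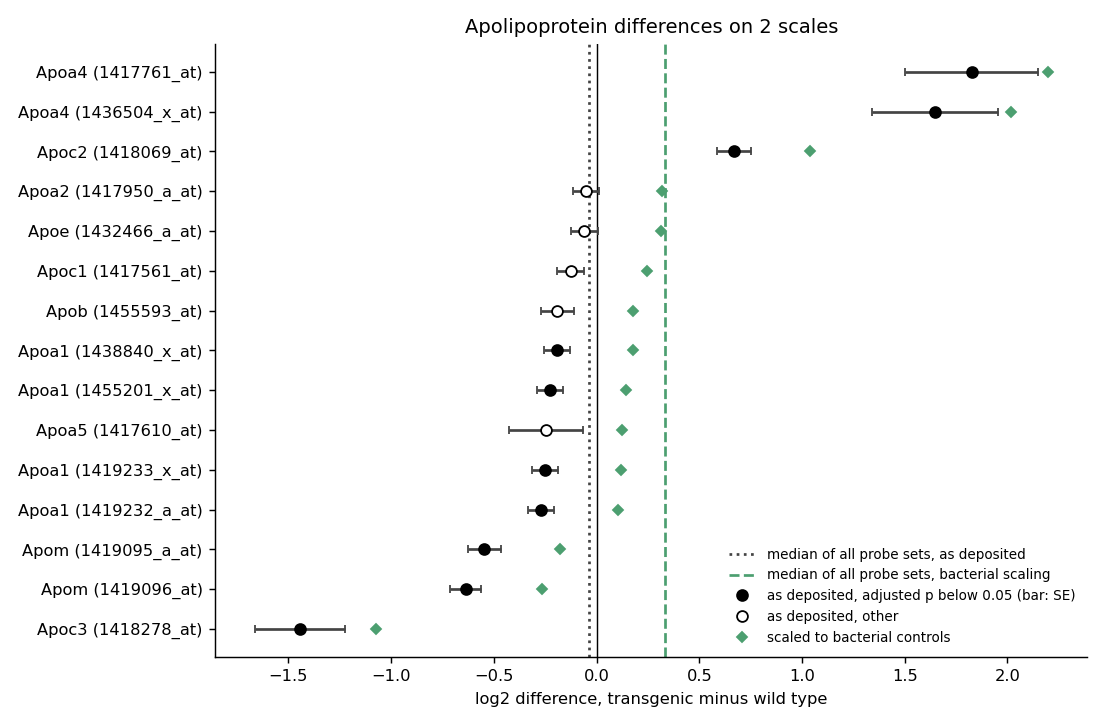
Log2 difference, transgenic minus wild type, for each apolipoprotein probe set as deposited (circles, filled where the adjusted p is below 0.05, with SE bars) and after bacterial scaling (diamonds). Apoa4 and Apoc2 lie above 0 and Apoc3 and Apom below 0 on both scales, while the 4 Apoa1 probe sets and Apoa2, Apoa5, Apob, Apoc1 and Apoe lie below 0 as deposited and above 0 after scaling.

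The members differed in brightness. The array maxima were 14.84 to 14.90, with a mean of 14.87. Of the 15 probe sets, 8 averaged within 1 log2 unit of that mean: the 4 for Apoa1 and those for Apoa2, Apob, Apoc1 and Apoe. These 8 differed by at most 0.27 in either direction, and 4 of them, all for Apoa1, were called. Of the 7 dimmer ones, 6 were called, and their median absolute difference was 0.67, against 0.19 for the 8 near the maximum. Over all probe sets, 45.3% were called in the range near the maximum and 35.4% outside it. Over all probe sets the median absolute difference was 0.28 where the mean lay between 12 and 13, 0.19 between 13 and 14, and 0.15 between 14 and 15. It was also low, at 0.18, where the mean lay between 4 and 5. All probe sets within 1 log2 unit of the mean maximum had a median absolute difference of 0.19, against 0.20 for the rest. An array reading this close to its maximum may hide differences, and the size of that effect was not tested.

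**Figure D3:**
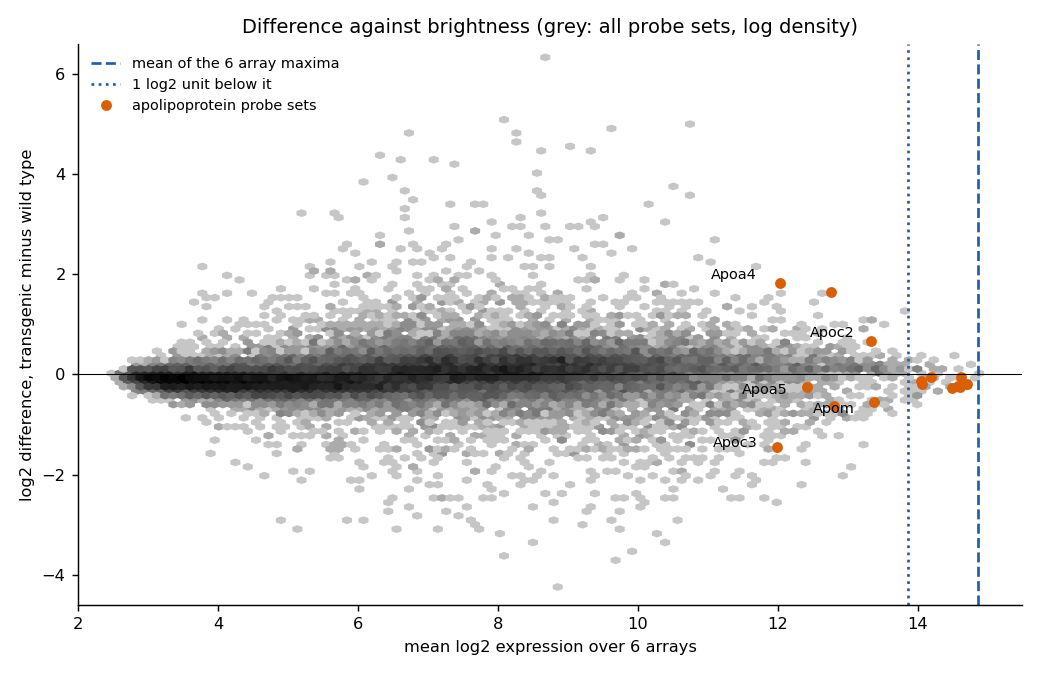
Log2 difference, transgenic minus wild type, against mean log2 expression over 6 arrays, for all probe sets (grey density, darker where more lie) and the apolipoprotein probe sets (orange). The vertical lines mark the mean array maximum of 14.87 and 1 log2 unit below it, and the 8 apolipoprotein probe sets between these lines lie close to 0.

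The members lie in few places in the genome, by the gene order of RefSeq on assembly GRCm38.p6, which was used only for order and names because the array annotation names no build. On chromosome 9 the order is Apoa1, Apoc3, Apoa4 and Apoa5, with no other measured gene between them. Along that stretch the differences of the brightest probe sets were -0.19, -1.44, 1.65 and -0.25, so that the neighbours Apoc3 and Apoa4 moved apart. On chromosome 7 the order is Apoc2, Apoc4, Apoc1 and Apoe. There Apoc2 rose by 0.67, Apoc4, whose protein is a minor component of very-low-density lipoprotein, fell by 0.52 (adjusted p = 0.00134 with limma; -0.14 with bacterial scaling), and Apoc1 and Apoe were not called. Of the 8 other genes measured beside the chromosome 9 group, 3 rose (Tagln by 0.97, Rexo2 by 0.48 and Pafah1b2 by 0.30) and 0 fell. Beside the chromosome 7 group, apart from Apoc4, Relb rose by 0.69, Nectin2 by 0.50, Tomm40 by 0.42 and Cblc by 0.33; the calls of Pafah1b2, Tomm40 and Cblc were each lost with several single arrays left out.

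**Figure D4:**
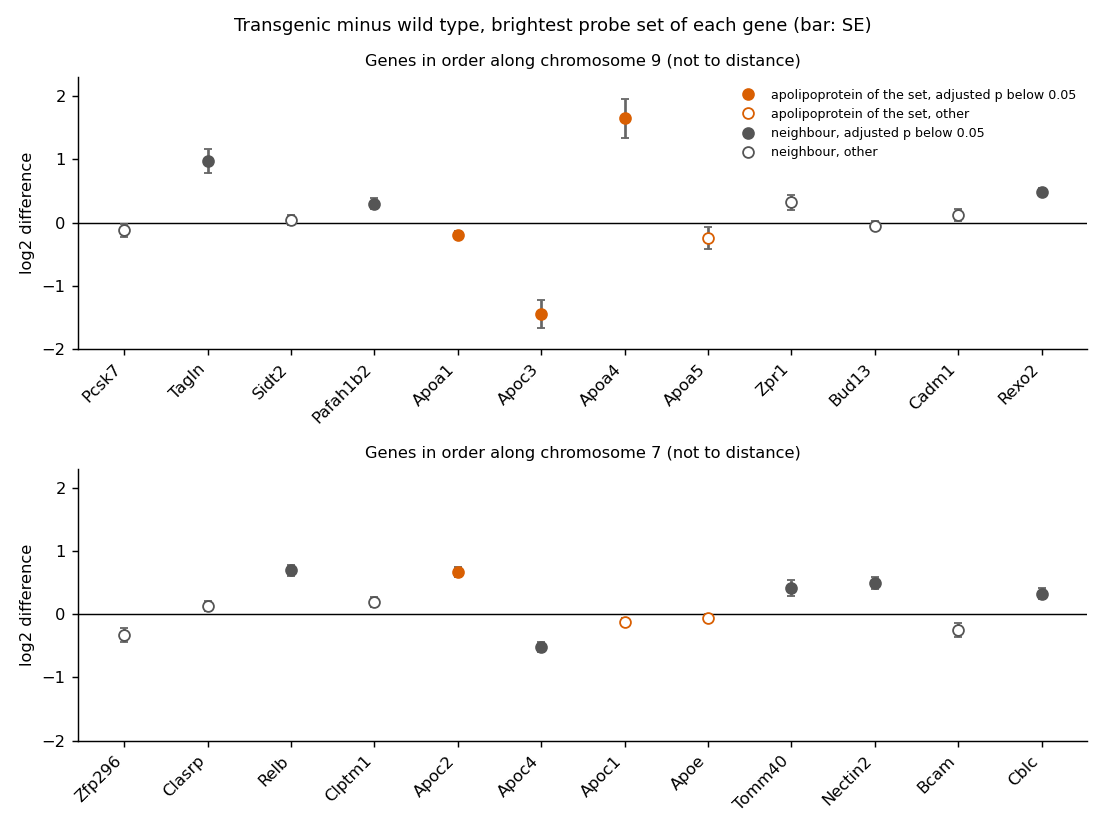
Log2 difference, transgenic minus wild type, with SE bars, for the brightest probe set of each measured gene in order along chromosomes 9 and 7; the spacing does not show distance. Apoc3 (-1.44) and Apoa4 (1.65) stand next to each other on opposite sides of 0, and Apoc2 (0.67) and Apoc4 (-0.52) do the same.

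The sequences just upstream of some genes of the chromosome 9 and chromosome 7 groups are shown. No window is shown for Apoc3 or Apoc4, so the adjacent genes that moved in different directions cannot be compared. RefSeq promoter windows, 250 bases before to 50 after a start (build GRCm38.p6), were found for 8 of the 10 genes, in 12 windows; Apoc1 and Apoc3 had none in the table. The windows below are for Apoa1 (chr9:46228380-46228679, plus strand), Apoa4 (chr9:46240594-46240893, plus strand), Apoa5 (the first of its 2 windows, chr9:46268358-46268657, plus strand) and Apoc2 (chr7:19677892-19678191, minus strand), and capitals mark the motifs found.
Apoa1: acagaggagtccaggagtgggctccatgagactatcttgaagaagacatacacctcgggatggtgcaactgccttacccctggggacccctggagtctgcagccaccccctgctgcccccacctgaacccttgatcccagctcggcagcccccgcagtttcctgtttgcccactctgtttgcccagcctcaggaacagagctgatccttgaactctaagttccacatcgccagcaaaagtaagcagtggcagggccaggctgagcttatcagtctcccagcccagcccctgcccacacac
Apoa4: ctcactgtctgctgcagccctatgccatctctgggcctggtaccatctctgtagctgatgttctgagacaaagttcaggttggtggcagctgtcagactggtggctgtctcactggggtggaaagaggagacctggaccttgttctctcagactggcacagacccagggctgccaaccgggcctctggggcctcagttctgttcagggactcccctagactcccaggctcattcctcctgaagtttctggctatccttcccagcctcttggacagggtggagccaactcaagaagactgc
Apoa5: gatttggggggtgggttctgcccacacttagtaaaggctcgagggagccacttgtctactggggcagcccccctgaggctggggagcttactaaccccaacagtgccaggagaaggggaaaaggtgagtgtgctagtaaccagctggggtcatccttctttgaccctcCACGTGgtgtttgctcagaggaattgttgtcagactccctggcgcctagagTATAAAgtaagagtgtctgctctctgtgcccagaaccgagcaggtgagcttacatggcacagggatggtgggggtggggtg
Apoc2: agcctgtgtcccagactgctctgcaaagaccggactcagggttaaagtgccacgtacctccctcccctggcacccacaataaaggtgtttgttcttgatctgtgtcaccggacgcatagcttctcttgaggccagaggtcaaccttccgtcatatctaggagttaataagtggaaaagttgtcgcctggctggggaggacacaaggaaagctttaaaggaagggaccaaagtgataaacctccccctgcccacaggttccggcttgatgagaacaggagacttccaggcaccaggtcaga

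Exact matches on both strands were sought for CACGTG (the E-box that TFEB and related factors bind), the CLEAR element of lysosomal genes (which is longer and contains it), CAAAGTCCA (HNF4A), TGACCTTTG (nuclear receptors), TCAAGGTCA (estrogen-related receptors), TTGCGCAA (C/EBP), TGACGTCA (CREB) and TATAAA (the TATA box). The E-box CACGTG was found in Apoa5 alone, at -82 to -77 from the start in the window shown, beside 7.15% of all 32851 windows. The letters TATAAA were found in windows of Apoa2, Apoa5, Apob and Apoe, beside 13.6% of all windows, and some members have more than 1 window. The matches began at -31 in the Apoa5 window shown, -60 in Apob, -100 and -96 in Apoe and -212 in Apoa2. Whether any of them works as a TATA box was not tested. The other 6 were found in no member's window, and each in at most 1.79% of all windows. None of the 8 was present in the windows of Apoa4 and Apoc2, the genes that rose. The same held for Apoa1 and Apom, which fell on the deposited scale, so the absence does not set the risen genes apart.

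Genes that work with the apolipoproteins were counted from 5 lists, by the brightest probe set of each gene. Over all genes, 19.1% were called higher and 19.5% lower. With bacterial scaling, 12963 of all 22626 probe sets were called higher and 945 lower. Among 14 further genes whose products are apolipoproteins, act on them or travel on lipoproteins, 2 rose, 8 fell and 4 were not called (3 and 5 called with bacterial scaling; median difference -0.30, beside -0.04 over all genes and 38.6% called). Clu, or apolipoprotein J, read 14.44, 14.44 and 14.49 in transgenic liver, against 13.24, 13.25 and 13.16 in wild-type liver, and all 4 of its probe sets were called higher. Apon read 7.92, 7.11 and 7.40 in transgenic liver, against 9.88, 9.92 and 9.77 in wild-type liver, a difference of -2.38 (SE 0.18, adjusted p = 6.23e-05 with limma). The groups were far apart for both genes. Pon1, the paraoxonase of high-density lipoprotein, fell by 1.88 and Saa4, the constitutive serum amyloid A, fell by 1.79. Apool, a mitochondrial protein named for its sequence, rose by 0.26, a call lost with any 1 array other than wild-type replicate 2 left out (adjusted p = 0.0603 to 0.117 with limma).

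Genes of lipoprotein assembly and secretion changed in both directions, with 2 of 15 higher, 5 lower and 8 not called (median -0.06). Over all genes, 19.1% were higher and 19.5% lower. With bacterial scaling 10 genes of the list were higher and 1 lower, beside 12963 and 945 of all 22626 probe sets. Tm6sf2, which is needed to load very-low-density lipoprotein with lipid, fell by 0.77 (SE 0.07). Cideb, a lipid droplet protein of the same step, fell by 0.40, and Sar1b, a GTPase of the vesicles that carry large lipoproteins, fell by 0.34, but with bacterial scaling neither was called and the differences were -0.029 and 0.032. Dgat1 and Dgat2, which make triglyceride, rose by 0.56 and 0.29. For Dgat2 only 1 of its 2 probe sets was called, and that call was lost with cyclic loess (adjusted p = 0.0754 with limma). The counts depended on single arrays, and the list held 0 higher without transgenic replicate 2 or wild-type replicate 3, and 1 to 4 lower with 1 array left out (1 without transgenic replicate 3). Mttp, the transfer protein that lipidates apolipoprotein B, named after its value was seen, averaged 10.19 in transgenic and 10.17 in wild-type liver (difference 0.019, adjusted p = 0.929 with limma). Transgenic replicate 1 was the lowest array for Mttp, at 9.83 against 10.37 and 10.36 on the other transgenic arrays. Without it the difference was 0.20 (adjusted p = 0.131 with limma), and with bacterial scaling it was 0.39 (adjusted p = 0.0189 with limma).

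Lipases and remodelling enzymes were lower for 6 of 11 genes and higher for 1, beside 19.5% and 19.1% of all genes, and 4 were not called. The median was -0.48, and with bacterial scaling 4 were higher and 4 lower. Lcat, which esterifies cholesterol on high-density lipoprotein and is activated by apolipoprotein A-I, fell by 1.48 (SE 0.08, adjusted p = 1.19e-05 with limma). Angptl6 fell by 1.00, Gpld1 fell by 0.95 and Pnpla2, the adipose triglyceride lipase, rose by 0.67 on the brighter of its 2 probe sets, and the other was not called. Lpl, the lipase that Apoc2 and Apoc3 act on, named after its value was seen, averaged 12.28 in transgenic and 13.18 in wild-type liver and fell by 0.91 (SE 0.09; -0.54 with bacterial scaling).

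Receptors and cholesterol transporters were lower for 9 of 22 genes and higher for 2, beside 19.5% and 19.1% of all genes, and 11 were not called. The median was -0.20, and with bacterial scaling 7 were higher and 4 lower. Lrp1, a remnant receptor that binds apolipoprotein E, fell by 0.89. Scarb1, which takes up cholesterol from high-density lipoprotein, and Abcg8, which moves sterols into bile, also fell by 0.89. Cd36, a fatty acid and scavenger receptor, rose by 0.86, with all 3 of its probe sets called, and Lrp10 rose by 0.32, a call kept only without wild-type replicate 1 when 1 array was left out. Abca1, which loads apolipoprotein A-I with cholesterol, named after its value was seen, fell by 0.45 (SE 0.08) but was not called with bacterial scaling (-0.079, adjusted p = 0.528 with limma).

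Transcription factors known to act on apolipoprotein genes were lower for 16 of 31 and higher for 3, beside 19.5% and 19.1% of all genes. The other 12 were not called. The median was -0.34, and with bacterial scaling 7 were higher and 7 lower. Ppargc1a, a coactivator, rose by 3.02, with all 5 of its probe sets called, Foxa1 by 0.93 and the nuclear receptor gene Esrra by 0.82. Nr0b2, which encodes the corepressor SHP, fell by 1.59, Onecut1 fell by 1.26 and Srebf1 fell by 1.24. Hnf4a, whose factor binds promoters of many apolipoprotein genes, named after its value was seen, averaged 11.57 in transgenic and 11.90 in wild-type liver and fell by 0.34 (SE 0.08), whereas with bacterial scaling its sign turned (0.036, adjusted p = 0.745 with limma).

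**Figure D5:**
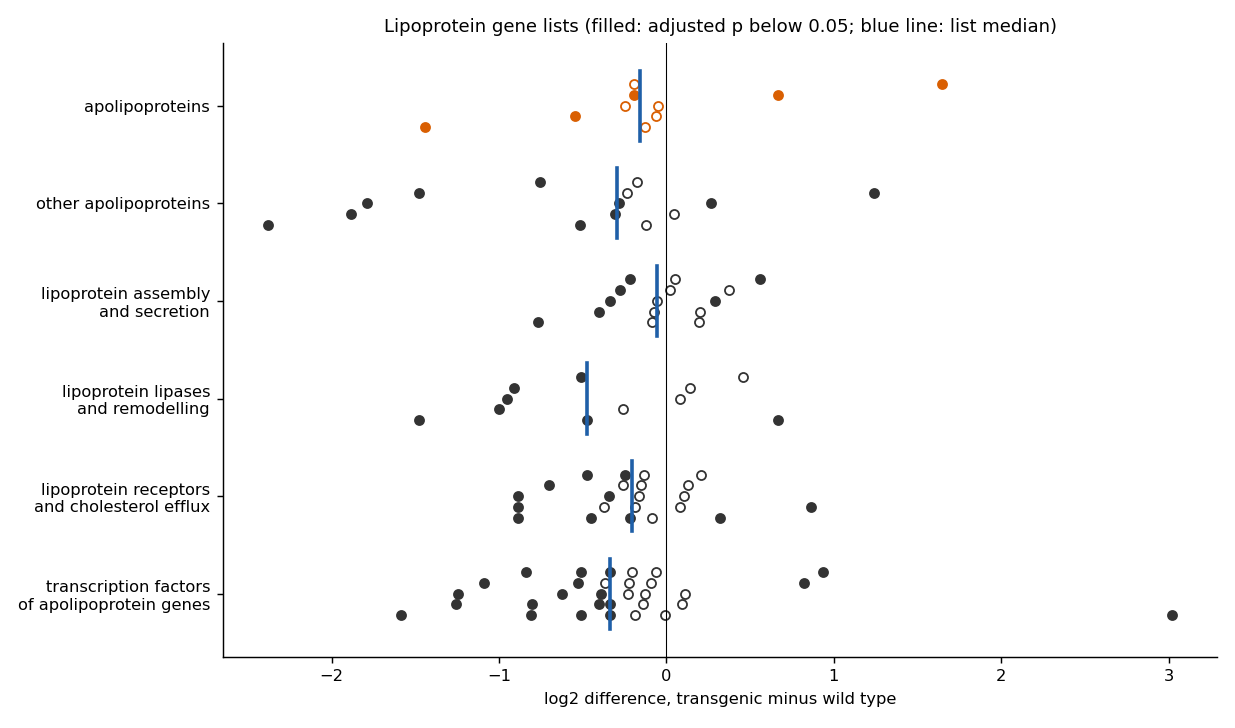
Log2 difference, transgenic minus wild type, for the brightest probe set of each gene in the apolipoprotein set (orange) and the 5 lists (black), filled where the adjusted p is below 0.05, with blue lines at the list medians. The apolipoproteins span -1.44 to 1.65 around a median of -0.16, and the list medians run from -0.48 to -0.06.

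The genes whose readings over the 6 arrays were most like those of Apoa4 (dimmer probe set) were Slc35a4 (Pearson's r = 0.998), Kctd20 (0.994) and Src (0.992). Those most like Apoc3 were Sag (0.999), Aldh9a1 (0.998) and Hsf4 (0.995). The likeness is over 6 arrays that share the difference between groups, and the differences of these genes were small beside those of the members, from 0.25 to 0.49 for the first 3 and from -0.65 to -0.26 for the others. Sag and Hsf4 read at most 5.13 on every array.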

How the data were processed

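Liver RNA from 3 transgenic and 3 wild-type mice was measured on 1 Affymetrix array each. Per the submitters' processing notes, which name affy and RMA without versions, the deposited log2 expression values were made by the authors; the range of the values fits RMA's log2 output. Of 22690 probe sets, none with a missing value, 64 array controls were set aside and 22626 tested. RMA gives all arrays nearly 1 distribution, which hides any shift of total RNA, and the number of arrays limits the precision. By the platform annotation 20380 probe sets name 1 gene, 691 several and 1555 no gene. Through Entrez identifiers 20351 matched RefSeq, with 0 symbols changed.

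Groups were taken from the sample titles. A linear model of group alone was fitted to every probe set (limma 3.58.1 under R 4.3.3), followed by eBayes, with Benjamini-Hochberg adjustment over all and a threshold of 0.05. An exact permutation test of 3 against 3 cannot go below p = 0.1, so none was run. Values are log2 differences with the SE of the fit. Members, lists and tests were chosen with earlier results of these data known, and a few genes stand in more than 1 list. Named are all members, Tfeb, the 3 largest rises and falls past the threshold in each list, neighbours past the threshold, genes that check sex or cell type, the 3 genes most like the largest rise and the largest fall, and genes marked as named after their values were seen. Alternatives changed the normalization, the variance model, the probe sets used, the pairing and the arrays included. The fit was tested on simulated data. Python 3.11.15 (pandas 2.3.3, matplotlib 3.10.9) served for tabulation and plotting.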

Additional observations from a re-analysis of the deposited data

How the results depend on the processing

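Apoa4, Apoc2 and Apoc3 kept their direction and their call under all alternatives in which they were measured, as did Apom apart from 1 of its probe sets with bacterial scaling (-0.18). Scaling to the bacterial controls turned the sign of the Apoa1 probe sets (0.10, 0.12, 0.18 and 0.14), Apoa2 (0.32), Apoa5 (0.12), Apob (0.18), Apoc1 (0.25), Apoe (0.31), Sar1b (0.032), Hnf4a (0.036) and Tfeb (0.16). That scaling moved every difference up by the same amount, so only small falls could turn. Relative to the median of all probe sets, the member differences stayed the same. The scaling gave 6 member probe sets higher and 2 lower, 31 list genes higher and 20 lower, and 12963 of all probe sets higher and 945 lower (93.2% of calls higher against 51.0%). Quantile normalization again left 4 member probe sets lower, with Apoa2 at 0.023. Mttp, near 0 on the deposited scale, turned sign under cyclic loess (-0.073), median centring (-0.022) and quantile normalization again (-0.0026), and ranged from -0.072 to 0.20 with 1 array left out (-0.072, -0.068 and -0.029 without transgenic replicate 2, transgenic replicate 3 and wild-type replicate 3). Without _x_at and _s_at probe sets, which removes 3 of the 4 for Apoa1, 4 were lower. With 1 probe set a gene, 3 were lower, and 2467 and 2523 of all genes were higher and lower. Median centring moved the share of calls that were higher to 42.1%. With 1 array left out, the member probe sets called lower ranged from 4 to 6 and those called higher stayed at 3; the calls lost were those of Apoa1, and the lower count was 4 without transgenic replicate 1, transgenic replicate 3 or wild-type replicate 2, against 7 with all arrays. List genes called higher numbered 10 with all arrays and 6 to 9 with 1 left out, 6 without transgenic replicate 2 or wild-type replicate 3. The causes of these changes were not tested. The replicate numbers do not pair the animals in the labels, and deviations of like-numbered arrays correlated at -0.10, -0.02 and 0.05; with the replicate number as a block, 3 member probe sets were higher and 4 lower. Of the 15 member probe sets, 8 lie near the array maximum, where a reading may hide differences, which was not tested.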

Other observations

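Beside the members that stand alone in the genome, measured neighbours also differed, whereas Apoa2 and Apob did not pass the threshold. Next to Apoa2 on chromosome 1, Nr1i3, the nuclear receptor CAR of drug metabolism, averaged 7.38 in transgenic and 9.46 in wild-type liver and fell by 2.08 (SE 0.07), and Pcp4l1 fell by 2.46 (SE 0.10). On the same side Tomm40l rose by 0.95 (SE 0.08). On the other side of Apoa2, Adamts4 rose by 0.37 and B4galt3 by 0.34. Beside Apob on chromosome 12, Fkbp1b rose by 0.73 (SE 0.08) and Rhob, a small GTPase, by 0.48. Beside Apom on chromosome 17, Aif1, a macrophage gene, fell by 0.52, Lst1 fell by 0.39 and Ly6g6c fell by 0.48. Over all 5 places 12 of 41 neighbours were higher and 6 lower, beside 19.1% and 19.5% of all genes. The calls of B4galt3, Ly6g6c and Aif1 were lost with several single arrays left out, and those of Aif1, Lst1 and Ly6g6c with bacterial scaling (-0.15, -0.023 and -0.10).

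Markers of other cells differed too. Cholangiocyte markers were higher for 4 of 6, beside 19.1% of all genes. Their summed level was 11.21 to 11.65 in transgenic and 8.54 to 9.78 in wild-type liver. Cldn4, which averaged 10.53 in transgenic and 5.92 in wild-type liver, makes up the largest part of the transgenic sum. Krt19 (-0.27, adjusted p = 0.613 with limma) and Cftr (0.38, adjusted p = 0.573 with limma) were not called. Granulocyte and lymphoid markers were lower for 6 of 7, beside 19.5% of all genes. Their summed level was 10.73 to 11.84 in transgenic and 12.80 to 13.92 in wild-type liver. Erythroid precursor markers were higher for 3 of 5 and lower for 0. Stellate cell markers were higher for 0 of 7 and lower for 3, and endothelial markers were higher for 1 of 6 and lower for 3.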
